A study of Homo sapiens with 7 samples.

Results

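The transcripts of 10 genes for proteins of the lysosomal membrane and of cholesterol export from the lysosome were examined: LAMP1, LAMP2, LAMP3, CD63, SCARB2, NPC1, NPC2, MCOLN1, CTNS and CLCN7. They were chosen by gene symbol, and all 10 were found among the 36337 gene names on the array, where they are represented by 13 probes. The cells were HCT116 H2B-GFP, a near-diploid human colon carcinoma line that carries histone H2B fused to green fluorescent protein, treated with 10 nM bafilomycin A1 for 30 h, and 4 replicate RNA samples were each hybridised to 1 single-colour Agilent array. The 3 untreated samples of the same line were not analysed here, so the values describe the treated cells and the error between their replicates, and no change with treatment is given. The labels number the replicates without saying whether they came from separate cultures; the study's methods speak in general of independent biological replicates for its statistics, but not of these arrays by name, so the spread between them may be in part technical, and the promoter that drives the H2B-GFP transgene is not given in the sources used here.

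Lysosomes are acidified by the vacuolar proton pump, which bafilomycin A1 inhibits, and their enclosing membrane is densely covered by glycosylated proteins. LAMP1 and LAMP2 are the most abundant of these and, with the tetraspanin CD63 and SCARB2, the sorting receptor for glucocerebrosidase, make up much of that coat, whereas LAMP3 is a relative with restricted tissue expression. Cholesterol taken up with lipoproteins is bound in the lumen by the soluble protein NPC2 and handed to the membrane protein NPC1, which passes it out of the lysosome. Of the others, MCOLN1 is a calcium-permeable cation channel, CTNS exports cystine together with protons, and CLCN7 exchanges chloride for protons. Many genes of this group carry the CLEAR element, an E-box bound by TFEB and related factors.

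The probes that carry the results are shown 5′ to 3′, with every G and C in capitals, because the deviations between arrays described below varied with base composition. Coordinates are those the files give for GRCh37. The 60 bases are printed for the LAMP2 probe that the files assign to all 3 transcript variants and for CD63 and MCOLN1, and the first 30 bases for the other probes. Each probe whose assignment or deviation the comparisons turn on is included.
LAMP2, probe of all 3 variants (chrX:119575586-119575645, minus strand): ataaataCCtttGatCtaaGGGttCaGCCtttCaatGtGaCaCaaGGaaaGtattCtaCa
LAMP2, probe of variant B (chrX:119571194-119571253, minus strand): tGCCtCCCattCaCtaGaaaatGaGaaaat
LAMP2, probe of variants A and C (chrX:119560073-119560132, minus strand): GGatGtatCGatttaGaGaaCCaattaata
CD63 (chr12:56119667-56119950, minus strand): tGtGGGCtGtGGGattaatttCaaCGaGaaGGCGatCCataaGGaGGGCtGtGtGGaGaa
SCARB2 (chr4:77079916-77079975, minus strand): GttCaCttCatGCGGttCttGaCatGttta
NPC2 (chr14:74946754-74946813, minus strand): ttCtCaGtGGttGtCtCatGtCtCtttttC
MCOLN1 (chr19:7593764-7593823, plus strand): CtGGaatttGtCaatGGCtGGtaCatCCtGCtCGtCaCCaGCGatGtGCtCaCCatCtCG
CTNS, probe of a RefSeq transcript (chr17:3566287-3566346, plus strand): GatGCGaattaGtaaaaGCtaaattCaaaa
CTNS, probe of an Ensembl transcript (chr17:3553740-3553799, plus strand): CCCtCCaGCCtGaGtGttGGaGCaaGaCtC
CLCN7 (chr16:1495956-1496015, minus strand): ttGGGtaCaCaGGCCCaGaGGaCtGGGGtG

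The other 3 probes lie at chr13:113977667-113977726 on the plus strand for LAMP1, chr3:182840063-182840122 on the minus strand for LAMP3 and chr18:21112218-21113347 on the minus strand for NPC1. The genes thus lie on 10 different chromosomes. The CD63 probe covers 284 bases of the genome and the NPC1 probe 1130 bases, although each is 60 bases long, so both join separate stretches of their gene. Which exons or untranslated regions the probes fall in was not read here, since the gene table at hand belongs to another build.

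Of the 10 genes, 10 were well above background on all 4 arrays, as were all 13 of their probes, whereas 52.5% of all gene names on the array passed the same rule. The rule asked that over 50% of the spots of a probe carry the scanner software's flag for a signal well above background, on each array. The dimmest of the 13 probes was the CTNS probe of the RefSeq transcript, whose background-subtracted signal was 69.8, 57.0, 80.2 and 64.5 on replicates 1 to 4. The lowest signal flagged as well above background lay between 19.0 and 22.3 on the 4 arrays. No spot of any probe was saturated (0 spots), so the bright signals of NPC2, which reached 68601 on replicate 3, were within the range of the scanner.

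Levels are given below as the log2 of the background-subtracted signal minus the median of the array. They depend on the probe as well as on the transcript, so they are compared between arrays and not between genes. The span is the ratio of the highest to the lowest of the 4 arrays, and it is set against 1.4-fold, the limit the study used for a changed gene. The study applied that limit to ratios of an aneuploid to a diploid line, after values were summarised per cell line. A span between single arrays is an unlike measure. It does not tell how many genes would pass the study's limit through replicate error.

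Among the glycoproteins of the lysosomal coat, LAMP1 and CD63 varied least. LAMP1 lay at 8.79, 8.89, 9.06 and 8.82 on replicates 1 to 4, with a mean of 8.89 ± 0.12 (SD, n = 4) and a span of 1.21-fold. CD63 lay at 9.16, 9.31, 9.36 and 9.13, with a mean of 9.24 ± 0.11 (SD, n = 4) and a span of 1.17-fold. In both genes replicate 3 was the highest array, although with normexp and quantile normalization it was the lowest for CD63. SCARB2 lay at 6.41, 6.48, 6.94 and 6.53, with a mean of 6.59 ± 0.24 (SD, n = 4) and a span of 1.45-fold. Here 3 arrays lay close together and replicate 3 stood above them, 1.39-fold over their mean. That margin was 1.18-fold with normexp and quantile normalization. It was 1.08-fold once the trend with base composition, described below, was taken off.

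LAMP3, the member known from mature dendritic cells and lung epithelium, was detected in this colon line on every array. Its level was 2.53, 2.93, 3.03 and 2.78, with a mean of 2.82 ± 0.22 (SD, n = 4) and a span of 1.41-fold, which is only just over the limit. In contrast to LAMP1, LAMP2, CD63 and SCARB2, its lowest array, replicate 1, lay further from the mean (-0.28) than replicate 3 did (0.21).

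**Figure D1:**
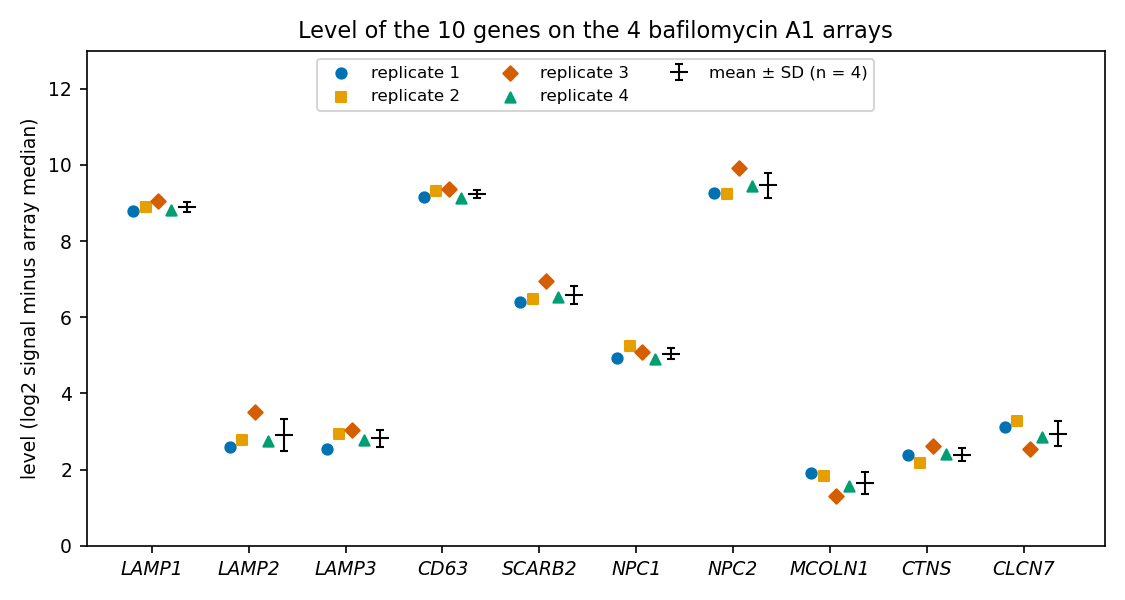
Level of each gene (log2 background-subtracted signal minus the array median, vertical axis) on the 4 bafilomycin A1 arrays, with the mean and SD (n = 4) in black. Heights of different genes depend on their probes and are not compared; within a gene, the arrays of LAMP1 and CD63 lie within 1.21-fold and those of LAMP2 spread over 1.92-fold.

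LAMP2 had the largest spread of the 10 genes. Its level, the median over 3 probes, was 2.58, 2.77, 3.52 and 2.74, with a mean of 2.90 ± 0.42 (SD, n = 4) and a span of 1.92-fold. Replicate 3 lay 1.77-fold over the mean of the other 3 arrays, which among themselves spanned 1.14-fold. LAMP2 is spliced into isoforms that share the lumenal domain and differ in their last coding exon: LAMP2A is the receptor of chaperone-mediated autophagy, LAMP2B is the form best known from muscle, and LAMP2C has been described as a receptor for nucleic acids.

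The 3 LAMP2 probes, whose sequences are printed above, did not deviate alike. The probe of variant B, which was the median probe and therefore gave the gene's level on all 4 arrays, has the spread just described. The probe of variants A and C lay at 2.24, 2.15, 2.67 and 2.09, with an SD of 0.26 (n = 4) and a span of 1.496-fold. The probe of all 3 variants lay at 4.94, 5.04, 5.24 and 4.86, with an SD of 0.16 (n = 4) and a span of 1.30-fold. Replicate 3 was the highest array for each of them, but its margin over the mean of the other arrays fell from 1.77-fold for variant B to 1.42-fold for variants A and C and 1.22-fold for the shared probe. The 3 probes have the same G and C content, 35%.

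Within an array, the log2 difference between the probe of variant B and that of variants A and C was 0.35, 0.62, 0.86 and 0.66 on replicates 1 to 4, with an SD of 0.21 (n = 4). Its lowest value came from replicate 1 and its highest from replicate 3, so the relation of the 2 probes was not fixed between replicates. The difference between the probe of variant B and the shared probe was -2.36, -2.26, -1.71 and -2.12, with an SD of 0.28 (n = 4), and without replicate 3 the SD was 0.12. The difference between the probe of variants A and C and the shared probe had an SD of 0.13 (n = 4). The sign of such a difference reflects the probes and does not rank the variants. Whether the isoforms or the hybridisation of the probes varied cannot be told apart from these values.

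The probes of the cholesterol export pair differed from each other in spread. The NPC1 value averages up to 10 spots per array and the NPC2 value is 1 spot, so these spreads hold unlike error within an array. NPC1, the membrane protein, lay at 4.94, 5.25, 5.09 and 4.91, with a mean of 5.05 ± 0.15 (SD, n = 4) and a span of 1.26-fold. It was the only one of the 10 genes in which replicate 3 was neither the highest nor the lowest array, and replicate 2 was highest, although with normexp and quantile normalization replicate 3 was the lowest. NPC2, the soluble partner, lay at 9.26, 9.23, 9.93 and 9.44, with a mean of 9.46 ± 0.33 (SD, n = 4) and a span of 1.63-fold. Replicate 3 lay 1.54-fold over the mean of the other 3 arrays in NPC2 and 1.04-fold in NPC1.

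The NPC1 probe is printed as 10 spots on each array, which separates the error within an array from that between arrays. The SD of the log2 signal between its spots was 0.19, 0.18, 0.12 and 0.12 on replicates 1 to 4, of which 10, 10, 7 and 9 spots were not flagged as outlying. Their mean, 0.15, was close to the SD of 0.15 between arrays, although the value of an array is an average over its spots. Of the 902 probes printed in this way, 673 were detected, with a median SD of 0.18 between spots and 0.20 between arrays. The other 12 probes have 1 spot per array, so this error within an array cannot be read for them.

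The channel MCOLN1 and the exchanger CLCN7 moved against most of the group. MCOLN1 lay at 1.92, 1.82, 1.30 and 1.56, with a mean of 1.65 ± 0.28 (SD, n = 4) and a span of 1.54-fold. CLCN7 lay at 3.11, 3.28, 2.55 and 2.85, with a mean of 2.95 ± 0.32 (SD, n = 4) and a span of 1.66-fold. In both genes replicate 3 was the lowest array and replicate 4 the next lowest. The mean of the other arrays was 1.38-fold over replicate 3 in MCOLN1 and 1.45-fold in CLCN7.

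CTNS, the cystine transporter, lay at 2.38, 2.17, 2.61 and 2.40, with a mean of 2.39 ± 0.18 (SD, n = 4) and a span of 1.35-fold. This value is the middle of 2 very different probes whose starts lie 12547 bases apart. The probe of the RefSeq transcript lay at -0.14, -0.30, 0.19 and 0.02, with an SD of 0.21 (n = 4), and the probe of the Ensembl transcript at 4.91, 4.64, 5.03 and 4.77, with an SD of 0.17 (n = 4). For both, replicate 3 was the highest array and replicate 2 the lowest. The Ensembl probe shares a run of 15 bases with 3 probes of other genes, of which 2 were detected on all arrays, and the RefSeq probe shares none with any (0 probes). Runs of 15 bases were also shared by the SCARB2 probe, with 1 probe of another gene that was detected on all arrays. The NPC1 probe shared such a run with 2 probes, and the NPC2 probe and the LAMP2 probe of variant B with 1 each, none of them detected on all arrays. No probe of the 10 genes shared 20 bases with a probe of another gene (0 probes).

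Across the group, 6 of the 10 genes spanned over 1.4-fold between replicates of the same treatment: LAMP2, LAMP3, SCARB2, NPC2, MCOLN1 and CLCN7. Of all detected genes, 46.4% did so, a share close to that of the group. The median SD was 0.23 over the 10 genes and 0.21 over all 19083 detected genes. By Dixon's ratio, which compares the gap of the outermost array with the whole range, 0 of the 10 genes had 1 array apart at the 95% level, against 8.48% of detected genes. The largest ratio among the 10 was that of LAMP2, 0.80, which is below the critical value for 4 arrays.

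Replicate 3 was the outermost array in most of the group. It was the highest of the 4 arrays in 7 of the 10 genes (LAMP1, LAMP2, LAMP3, CD63, SCARB2, NPC2 and CTNS) and the lowest in 2 (MCOLN1 and CLCN7), counts that became 6 and 4 with normexp and quantile normalization and 5 and 3 once the trend with base composition described below was taken off. Among detected genes it was the highest in 48.5% and the lowest in 23.2% under the main processing. Such shares are not given here for the other settings, so the changed counts have no matching background. The mean deviation of the 10 genes from their own means was -0.09, 0.02, 0.15 and -0.08 on replicates 1 to 4 on the log2 scale, with an SD of 0.11 (n = 4). The median deviation of all detected genes was -0.03, 0.03, 0.10 and -0.10 on the same arrays, with the same sign as the 10 genes on each.

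**Figure D2:**
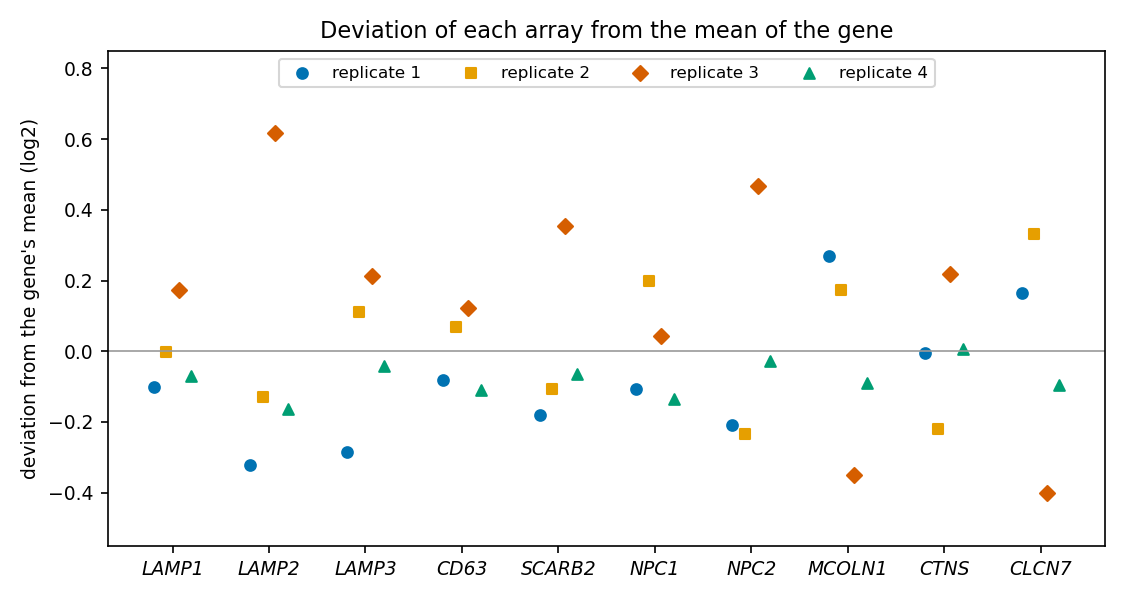
Deviation of each array from the mean of the 4 arrays (log2, vertical axis) for the 10 genes. Replicate 3 is the highest array in 7 genes, up to 0.62 in LAMP2, and the lowest in MCOLN1 and CLCN7, at -0.35 and -0.40. With normexp and quantile normalization these counts are 6 and 4, and the shares of all detected genes are not given for that setting.

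Without replicate 3, 0 of the 10 genes spanned over 1.4-fold, and the widest span was 1.35-fold in CLCN7, whereas 21.6% of detected genes still did. The median SD of the 10 genes was then 0.12, and that of all detected genes 0.15. As replicate 3 was the outermost array in most of the 10 genes, their smaller spread follows in part from the choice of that array. The SD of LAMP2 dropped to 0.10, that of SCARB2 to 0.06 and that of NPC2 to 0.11. The SD of LAMP3 was 0.22 with that array and 0.20 without it, and that of NPC1 0.15 and 0.19. Replicate 3 also held the most spots flagged as outlying, 2249, against 514 to 725 on the other 3 arrays.

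**Figure D3:**
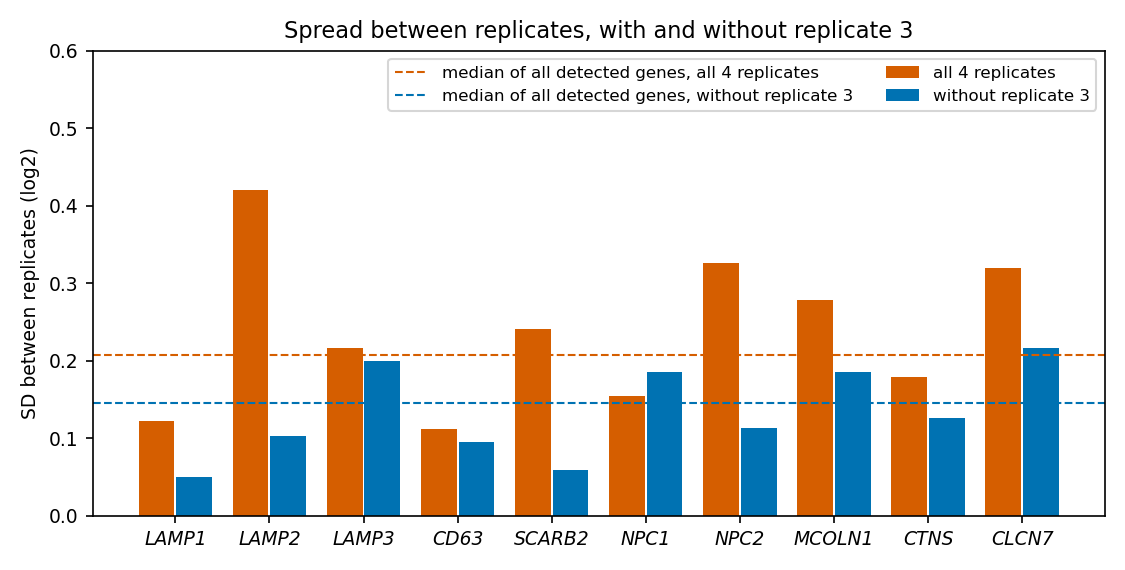
SD between replicates (log2, vertical axis) of each gene over all 4 arrays and without replicate 3, with the median over all detected genes as dashed lines (0.21 and 0.15). LAMP2, SCARB2 and NPC2 lose most of their spread when replicate 3 is left out, and LAMP3 and NPC1 do not. Replicate 3 was the outermost array in most of the genes, so a smaller spread follows in part from leaving it out.

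The deviation of replicate 3 varied with the base composition of the probes. Of all detected probes with a value on each array, the 4446 with at most 35% G and C had a median deviation of 0.27 on replicate 3, and the 6826 with 50% or more had a median of -0.07. Over these 24633 probes, which share the array and the labelling reaction, Spearman's rho between G and C content and the deviation was -0.44, and over the 13 probes of the 10 genes it was -0.76. MCOLN1 and CLCN7, the genes that were lowest on replicate 3, have the probes richest in G and C, with 53.3% and 60% over their full 60 bases. The other 11 probes have 35% to 50%. The part of base composition in these deviations was not tested.

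Set against probes of like composition, 8 of the 13 probes lay within the middle 50% of the deviations on replicate 3, 3 lay above it and 2 below it. The 3 above were the LAMP2 probe of variant B, at 0.62, the LAMP2 probe of variants A and C, at 0.38, and NPC2, at 0.47, where the upper quartiles were 0.37 for probes of 35% to 40% and 0.28 for those of 40% to 45%. The 2 below were MCOLN1, at -0.35, and CLCN7, at -0.40, where the lower quartiles were -0.22 and -0.27. When the trend with base composition was taken off each array, 4 genes still spanned over 1.4-fold, namely LAMP2, NPC2, MCOLN1 and CLCN7.

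**Figure D4:**
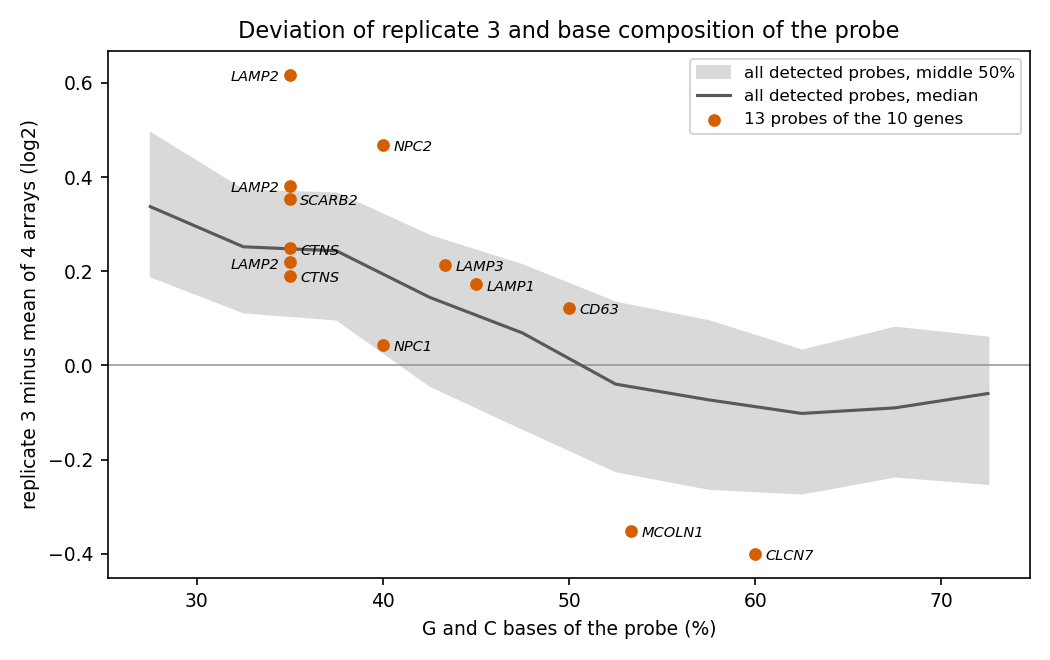
Deviation of replicate 3 from the mean of the 4 arrays (log2, vertical axis) against the G and C content of the probe (%) for the 13 probes of the 10 genes (points), with the median and the middle 50% of all detected probes, grouped in steps of 5% (line and grey band). The median falls from left to right as far as the group of 60% to 65% and is slightly higher beyond it. Of the 13 probes, 8 lie between their group's quartiles, and LAMP2, NPC2, MCOLN1 and CLCN7 hold the 5 outside them.

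Promoter sequence was examined because several of the 10 genes belong to the network described for the CLEAR element. RefSeq windows of GRCh38.p14, from 250 bases before to 50 after a transcript start, were at hand for 8 of the 10 genes, in 17 windows that partly overlap, and LAMP2 and LAMP3 have no entry. CACGTG, the core of the CLEAR element, which reads the same on both strands, was found in 4 of the 17 windows, 1 each of LAMP1, CD63, MCOLN1 and CLCN7, and in 7.26% of all 35116 windows. The longer TCACGTGA, which contains the former, was found in 2 of the 17 windows, those of LAMP1 and MCOLN1, and in 0.98% of all windows. The LAMP1 window holds CACGTG 6 times, and it is the only one of the table with 5 or more (1 window). MCOLN1 and CLCN7 hold it 2 times each and CD63 1 time, in 1 of its 8 windows.

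Stretches before the transcript start that hold these letters are printed with each CACGTG in capitals, to show how the copies are spaced. The last of the 6 copies of LAMP1 crosses the start and is not included.
LAMP1 (GRCh38.p14, chr13:113297035-113297228, plus strand): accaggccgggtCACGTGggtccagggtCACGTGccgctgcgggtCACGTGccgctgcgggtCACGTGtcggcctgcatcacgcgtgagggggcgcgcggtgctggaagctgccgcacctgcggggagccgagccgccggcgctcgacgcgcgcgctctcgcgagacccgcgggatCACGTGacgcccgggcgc
MCOLN1 (GRCh38.p14, chr19:7522571-7522623, plus strand): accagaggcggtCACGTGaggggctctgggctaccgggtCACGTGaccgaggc
CLCN7 (GRCh38.p14, chr16:1475038-1475087, minus strand): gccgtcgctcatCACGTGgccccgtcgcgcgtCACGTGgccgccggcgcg
CD63 (GRCh38.p14, chr12:55729172-55729201, minus strand): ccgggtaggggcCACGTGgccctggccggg

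The sterol response element TCACNCCAC, searched on both strands, was in none of the 17 windows (0 windows) and in 1.13% of all windows, and the TATA box TATAAA was likewise in 0 windows against 11.5%. The GC box GGGCGG was found in 13 of the 17 windows, from all of the 8 genes but LAMP1, and in 45.0% of all windows. These matches describe the letters of the windows and say nothing about which factors were bound in the treated cells.

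Of 24 other lysosomal membrane proteins, 23 were detected on all 4 arrays. LAPTM5, which is known from blood cells, was well above background on no array (0 arrays). The median SD of the 23 was 0.16, and 9 of them spanned over 1.4-fold, against 46.4% of all detected genes. The largest SDs were those of HGSNAT, the acetyltransferase of heparan sulphate degradation, CLN3, the membrane protein lost in juvenile neuronal ceroid lipofuscinosis, and TMEM106B, a regulator of lysosome size and transport.

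HGSNAT lay at 0.61, 1.32, -0.59 and 4.05, but this is the median of 2 probes of which 1 was dim, with no value on replicate 4. With the detected probe alone it lay at 4.11, 4.15, 4.41 and 4.05, with an SD of 0.16 (n = 4). On that probe HGSNAT did not span over 1.4-fold, so it counts among the 9 only through the dim probe. CLN3 lay at 3.23, 3.45, 2.32 and 2.79, with an SD of 0.50 (n = 4), lowest on replicate 3 as in MCOLN1 and CLCN7, and its probe has the same G and C content as that of MCOLN1, 53.3%. TMEM106B lay at 4.04, 4.23, 4.67 and 3.97, with an SD of 0.32 (n = 4), highest on replicate 3, and both its probes have 35%. Not every probe rich in G and C was low on replicate 3. In the lists below, SLC66A1, CD82 and KRT19 were highest there, with probes of 53.3%, 55% and 55%.

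Of 17 genes that handle sterols around the lysosome, 14 passed on every array. Their median SD was 0.24, and 9 spanned over 1.4-fold, against 46.4% of all detected genes. ABCA1, the sterol exporter at the plasma membrane, passed on 2 arrays. The largest SDs were those of GRAMD1A, a sterol transfer protein of the endoplasmic reticulum, its relative GRAMD1C, and OSBPL5, an oxysterol-binding protein homologue. GRAMD1A lay at 2.39, 2.09, 0.98 and 1.88, with an SD of 0.61 (n = 4), and was lowest on replicate 3 with a probe of 55% G and C. GRAMD1C lay at 2.76, 3.07, 3.51 and 2.86, with an SD of 0.33 (n = 4), and was highest there with a probe of 43.3%. OSBPL5 lay at 3.06, 3.41, 2.60 and 2.95, also with an SD of 0.33 (n = 4), and was lowest there with probes of 45% and 55%.

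Of 18 paralogs of the 10 genes, 16 passed on every array. Their median SD was 0.19, and 6 spanned over 1.4-fold, against 46.4% of all detected genes. CD36, the fatty acid translocase related to SCARB2, was well above background on no array (0 arrays), and LAMP5, the LAMP family member of brain, listed on the array as C20orf103, passed on 1. PTCH1, the Hedgehog receptor that resembles NPC1, and the chloride exchangers CLCN5 and CLCN4 had the largest SDs, of 0.46, 0.36 and 0.29 (n = 4). PTCH1 was lowest on replicate 3, at -1.997 against -0.99, -1.21 and -1.08 on replicates 1, 2 and 4, as the median of 3 probes of which only 1 was detected. That probe alone lay at 0.21, 0.85, 0.63 and 0.37, with an SD of 0.28 (n = 4), so that its lowest array was replicate 1 and the direction on replicate 3 turned.

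The labelled cell type was checked against its markers. Of 10 markers of colon epithelium, 7 were detected on all arrays, namely EPCAM, CDH1, KRT8, KRT18, KRT19, CDX2 and LGALS4. In contrast, VIL1, GPA33 and CEACAM5 were on no array (0 arrays). Of 11 markers of other cell types, CCR7, COL3A1, PECAM1 and ALB were on no array (0 arrays), and CD14, SFTPC and GFAP were on 2, 3 and 1. CD14 and SFTPC had no value on the arrays they did not pass, so their counts do not show a low level. The remaining 4, PTPRC, CD79A, CD83 and COL1A1, were detected on all arrays by at least 1 probe, PTPRC by 1 of 5. The mean levels of CD79A, CD83 and COL1A1 were 5.73, 4.05 and 2.91. The check against other cell types was thus not clean, and the reason was not tested. Of the markers that go with LAMP3 in dendritic cells and lung epithelium, CCR7 was thus absent from the detected genes, CD83 was present and SFTPC passed on 3 arrays. A level in bulk RNA cannot separate few cells with much of a transcript from many cells with little.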

How the data were processed

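Total RNA of 4 bafilomycin A1 replicates (100 ng each) was labelled with Cy3 and hybridised to single-colour arrays that lay on 1 slide, so slide and scan could not be separated from the treatment. The authors deposited scanner files of Feature Extraction 10.7.3.1 (version from the submitters' processing notes), with linear intensity values from which the software had subtracted the background, no normalization between arrays, and other columns of 0 or 1 flags. The 3 untreated samples were not analysed here, and no p-value was computed.

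Control spots, spots flagged as outlying in signal or background and signals at or below 0 were left out. Spots of a probe were averaged, log2 transformed and centred on the array's median, and genes with several probes took their median, after the study's methods as far as they state it. A gene was detected when at least 1 probe was well above background on all 4 arrays. The members, lists and tests were chosen with earlier results of these data known. All 10 genes are named, and of each list up to 5 genes on no array and the 3 detected genes with the largest SD. Genes that passed on some arrays, markers, and SLC66A1 and CD82 were named after their values were seen. Older symbols were matched through a RefSeq table of GRCh38.p14. Planned features of the protein sequences were not analysed here, and some genes of the lists are not reported by name. SD and Dixon's ratio were tested on simulated data.

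Alternatives tried were the software's processed signal minus its 75th percentile, normexp background correction (offset 50) with quantile normalization in limma 3.58.1, other filters on probes and spots, and leaving out each replicate. Removal of the trend with base composition, as medians over 10 groups of probes, was added after seeing the data. The number of arrays limits the precision. Python 3.11.15, pandas 2.3.3, numpy 2.4.6, scipy 1.17.1 and R 4.3.3 were used.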

Additional observations from a re-analysis of the deposited data

How the results depend on the processing

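No paired analysis was possible because the untreated samples were not analysed here. The count of 10 genes detected on all 4 arrays was the same under every alternative run. The median SD of 0.23 was 0.13 with normexp and quantile normalization and lay between 0.12 and 0.28 when 1 replicate was left out, lowest without replicate 3. The count of 6 genes spanning over 1.4-fold was 4 to 7 under the other normalizations and filters and 0 to 6 with 1 replicate left out, again lowest without replicate 3. The processed signal, normexp with quantile normalization, spots not averaged and removal of the trend with base composition each left 4 genes, LAMP2, NPC2, MCOLN1 and CLCN7. The share of all detected genes, 46.4%, is given for the main processing only, so these counts have no matching background. The count of 0 genes with 1 array apart became 1 with normexp and quantile normalization and 1 with the trend removed, in both cases LAMP3 through replicate 1. It could not be computed on 3 arrays.

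The SD of the mean over the genes, 0.11, was 0.065 with the processed signal, 0.023 with normexp and quantile normalization, 0.15 with the median over all probes and 0.030 with the trend removed, and between 0.059 and 0.13 with 1 replicate left out. Replicate 3 was the highest array in 6 genes and the lowest in 4 with normexp and quantile normalization, where CD63 and NPC1 joined MCOLN1 and CLCN7, and in 5 and 3 with the trend removed. The shares of all detected genes are not given for these settings. The levels of all 10 genes moved by more than 1 SD with the processed signal, the median over all probes or unaveraged spots, each of which sets another zero or summary, and 7 did with normexp and quantile normalization. None moved so far (0 genes) when a replicate was left out.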
